A study of Oryza sativa Japonica Group with 6 samples.

Results

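In root tips of the rice mutant plt345, 45 stretches of the genome held at least 4 consecutive genes whose RNA was at least 2-fold higher than in wild type. Together these runs comprised 202 genes. Genes with a locus identifier of the form LOC_Os were kept where their mean over the 6 libraries was at least 10 normalized counts, which left 23150 of 30969. They were ordered by chromosome and locus number, a number in the identifier that increases along the chromosome. A gene was marked as raised when the mean of the 3 plt345 libraries was at least 2 times the wild type mean. A run was 4 or more marked genes in a row on 1 chromosome, with genes that were not kept or not listed passed over. Of 46 such runs, 1 was left out because it touched 1 of a pair of stretches, LOC_Os02g36030 to LOC_Os02g36280 and LOC_Os04g09900 to LOC_Os04g10160. Members were thus chosen by the measured ratio of the genotype means, and their differences are given as a description. Counts of members that pass a test, where given, come from the same values and are no evidence for the runs.

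Wild type was Zhonghua 11 (ZH11), a japonica cultivar, and plt345 is, by its name and the series title, a mutant of PLT3, PLT4 and PLT5. Both were sampled as root tips of about 0.8 cm from untreated seedlings aged 7 days, grown under the same light and temperature cycle, with 3 libraries per genotype. Which kind of mutation plt345 carries, from how many lines, and how many plants were pooled is not stated in the labels. Since the labels also leave unsaid whether replicates are separate cultures, p-values cover only the spread among these 6 libraries, which may be technical.

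Plant genes can stand beside related genes for several known reasons. Tandem duplication leaves copies of a gene next to each other, and genes of some specialised metabolic pathways lie in clusters. Neighbours can also share a stretch of chromatin, for example one carrying the repressive histone mark placed by Polycomb repressive complex PRC2. PLETHORA (PLT) factors are AP2-type transcription factors known for their role in root meristems. The series as a whole asks how they act with PRC2 and the histone demethylase JMJ703, but chromatin was not analysed here.

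The libraries held between 20759896 and 21309371 reads counted on genes. PLT3 (LOC_Os02g40070) had 583.7, 572.8 and 582.1 normalized counts in wild type and 595.2, 578.2 and 555.8 in plt345. PLT4 (LOC_Os04g42570) had 287.8, 248.5 and 273.2 against 244.2, 218.2 and 231.7, and PLT5 (LOC_Os01g67410) 564.4, 516.5 and 512.6 against 1277, 1269 and 1259. These 3 symbols were not found in the reference table, so the loci rest on nomenclature alone. RNA of all 3 loci was thus present in every library labelled plt345, and these levels do not by themselves show which libraries carry the mutations. Levels of xylem, root hair and endodermis markers also differed, with plt345 to wild type ratios of 1.82 for CESA4, 1.52 for CESA7, 1.76 for CESA9, 1.34 for EXPA17 and 0.731 for CASP1. Whether the share of those cells bears on the runs was not tested, and in bulk tissue more cells of a type and more RNA per cell cannot be told apart.

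Across the genome, 13.9% of kept genes were raised by the 2-fold rule and 3.04% were lowered by the same factor. Of the 3216 raised genes, 1974 stood alone, 383 pairs and 90 trios followed, and 31 runs had 4 genes, 10 had 5, 4 had 6 and 1 had 8. These figures include the run left out. Among raised genes 22.5% were followed by another raised gene, compared with 12.5% of the genes that were not raised. Lowered genes formed 571 single genes, 54 pairs, 5 trios and only 2 longer runs, with 9 genes in all, and this small number depended on single libraries. It was 0 without wild type replicate 1, and 1 run of 4 genes without wild type replicate 3 or without plt345 replicate 1. Runs of at least 4 thus held 6.41% of raised and 1.28% of lowered genes, and the lowered genes were fewer to begin with.

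**Figure D1:**
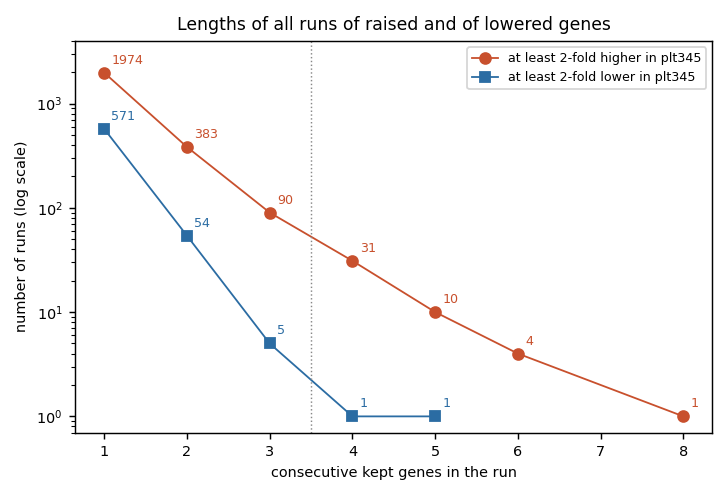
Number of runs (vertical axis, log scale) by the number of consecutive kept genes in the run (horizontal axis), for genes at least 2-fold higher (circles) and at least 2-fold lower (squares) in plt345. Both series fall with length, and raised runs reach 8 genes while lowered runs end at 5; lengths with 0 runs have no point, and the dotted line marks the minimum of 4.

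After the exclusion, 30 runs had 4 members, 10 had 5, 4 had 6 and 1 had 8. Chromosome 1 carried 11 runs with 53 members and chromosome 7 carried 7 with 34. Chromosome 9 carried none, although 157 of its 1263 kept genes were raised. The share of raised genes that lay in the runs was 12.3% on chromosome 7 and 10.9% on chromosome 1, and between 2.31% and 9.09% on the other chromosomes that had any. Locus numbers within a run spanned a median of 60, and 34 runs, with 158 members, had no step between successive members above 50. The remaining 11 runs, with 44 members, crossed wider steps of 60 to 1046 locus numbers. In 22 runs no other listed gene lay between the first and last member. Loci that are not listed were not counted, so members of these runs need not be adjacent in the genome. The run LOC_Os06g18000 to LOC_Os06g18670, for example, had no other listed gene inside but spanned 670 locus numbers, with a widest step of 530.

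Only 5 of the 202 members carry a symbol that could be checked against the reference table. The other members are given by locus identifier with no function, except 5 that lie in ranges assigned to gene families by nomenclature, described below. QHB (LOC_Os01g63510), a WUSCHEL-related homeobox transcription factor known from the quiescent centre of the rice root, had 27.46, 21.48 and 18.42 normalized counts in wild type and 116.7, 107.6 and 85.58 in plt345. The lowest plt345 library lay above every wild type library. QHB opens a run of 4 on chromosome 1 that ends at LOC_Os01g63620. The next member, LOC_Os01g63540, had only 2 wild type reads in all and 696 in plt345, a depth-scaled ratio of 332 (95% exact interval 91.5 to 2745). The last 2 genes of this run differed less, with ratios of 3.07 for LOC_Os01g63580 and 2.48 for LOC_Os01g63620. Members of 1 run thus ranged from a moderate rise to a gene almost without reads in wild type.

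PIN5B (LOC_Os08g41720), one of the PIN auxin transporters, opened a run of 5 on chromosome 8. It had 0, 0 and 2.046 normalized counts in wild type and 176.5, 187.9 and 174 in plt345. This rests on 2 wild type reads against 553, a ratio of 264 (95% exact interval 72.6 to 2182). The reference table crosses the names PIN5b and PIN5c, so the locus rather than the symbol identifies the gene. The other 4 members of this run had ratios of 4.39, 13.5, 2.95 and 2.55 in locus order. The kept gene just before PIN5B, LOC_Os08g41710, had means of 1267 and 1272, a ratio of 1.004. Just after the run LOC_Os08g41790 rose 1.71-fold, below the 2-fold rule.

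PT4 (LOC_Os04g10750), a phosphate transporter, had 96.61, 74.66 and 80.82 normalized counts in wild type and 422.6, 414.8 and 423.1 in plt345. The genotypes did not overlap. The 3 other members of its run, LOC_Os04g11040, LOC_Os04g11390 and LOC_Os04g11400, had no read in any wild type library. In plt345 LOC_Os04g11390 had 445.2, 472.6 and 472.1 normalized counts. Set against 3 reads for the whole group as a floor, this is at least 454-fold higher. Bounds for LOC_Os04g11040 and LOC_Os04g11400 were at least 138-fold and at least 117-fold. This run is spread over 650 locus numbers, and 4 further listed genes inside it stayed under the mean of 10, among them the phosphate transporter PT13 (LOC_Os04g10800) with 2 wild type and 9 plt345 reads.

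OC-I (LOC_Os01g58890), which encodes oryzacystatin I, an inhibitor of cysteine proteases, was the most abundant of the 5 named members. It had 651.9, 723.1 and 699.8 normalized counts in wild type and 2890, 2868 and 2979 in plt345, a 4.21-fold difference of means. CHARK (LOC_Os12g26940), a receptor-like kinase with a CHASE domain, had 21.36, 19.43 and 29.67 against 135.3, 130.1 and 125. Neither gene's libraries overlapped between genotypes. CHARK opened a run of 4 on chromosome 12 in which LOC_Os12g26960 held most of the RNA, with means of 477.3 ± 51.8 and 1514 ± 135 normalized counts (SD, n = 3).

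The longest run lay on chromosome 1 from LOC_Os01g06960 to LOC_Os01g07050 and had 8 members. LOC_Os01g07040, its most abundant gene in plt345, had 61.02, 56.25 and 57.29 normalized counts in wild type and 607, 604.7 and 607.7 in plt345. LOC_Os01g07000 had no wild type read but 138.3, 151.7 and 151 in plt345, which is at least 144-fold more. Between these genes lay smaller differences, down to 3.10-fold for LOC_Os01g07020 with means of 177.6 ± 26.4 and 550.8 ± 28.4 (SD, n = 3). The 5 other members had ratios of 23.8, 3.79, 9.503, 9.62 and 7.506 in locus order. Summed over the run, counts rose from 435.5 to 2660. The bounding genes were not higher in plt345, with ratios of 0.769 for LOC_Os01g06920 and 0.985 for LOC_Os01g07060, the latter only 10 locus numbers from the last member.

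**Figure D2:**
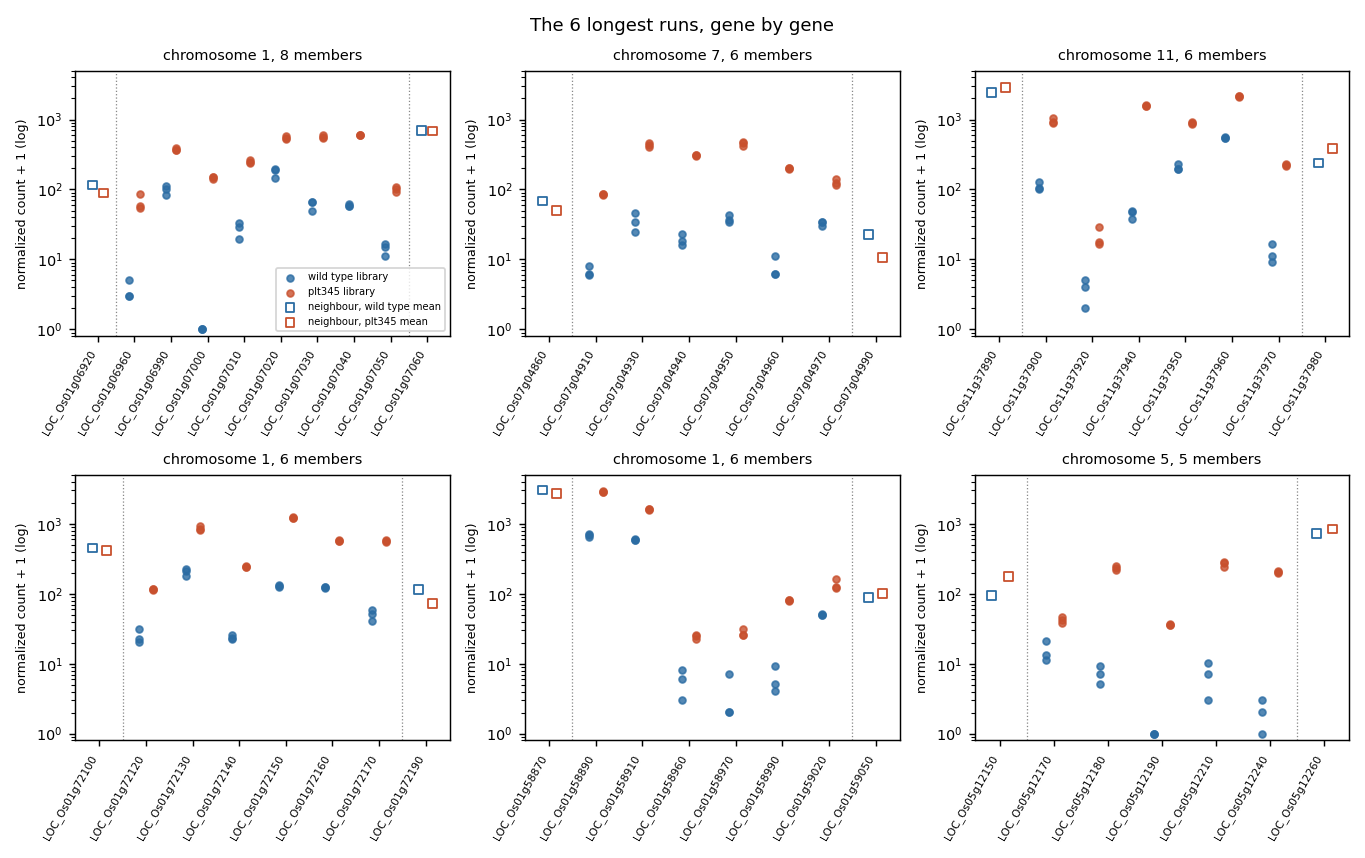
Normalized count plus 1 (vertical axis, log scale) of each gene in locus order (horizontal axis) in the 6 longest runs, with 1 point per library for members (wild type blue, plt345 red) and open squares for the genotype means of the kept gene on each side. Within the dotted lines every plt345 point lies above every wild type point of its gene, while the bounding squares lie close together, furthest apart at LOC_Os07g04990, which is lower in plt345, and LOC_Os05g12150, which is higher.

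A run of 6 on chromosome 7, LOC_Os07g04910 to LOC_Os07g04970, had members of similar ratio in its first part. LOC_Os07g04950 had 42.71, 32.73 and 35.81 normalized counts in wild type and 481.4, 455 and 424 in plt345, and LOC_Os07g04930 had means of 33.67 ± 10.6 and 434.6 ± 24.3 (SD, n = 3). The first 4 members had ratios of 14.5, 12.9, 16.8 and 12.2 in locus order. LOC_Os07g04960 stood higher at 29.3-fold and LOC_Os07g04970, the last, lower at 3.99-fold. The gene beyond it, LOC_Os07g04990, fell, with means of 21.44 and 9.697 (log2 fold change -1.17 ± 0.38 SE, limma adjusted p = 0.00775).

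On chromosome 11 a run of 6 stretched from LOC_Os11g37900 to LOC_Os11g37970, and its sum rose from 929.1 to 5796 normalized counts. LOC_Os11g37960 had 548.1, 560.5 and 547.4 in wild type and 2168, 2102 and 2164 in plt345. LOC_Os11g37940 was far lower in wild type, with 36.61, 48.07 and 46.04, and reached 1546, 1588 and 1570. A gene far below LOC_Os11g37960 in wild type therefore came close to its level in plt345. LOC_Os11g37900, LOC_Os11g37920, LOC_Os11g37950 and LOC_Os11g37970 had ratios of 8.60, 7.38, 4.25 and 19.7. Before this run stands GME-2 (LOC_Os11g37890), which encodes a GDP-mannose epimerase, at means of 2434 ± 54.6 and 2884 ± 49.5 (SD, n = 3), a ratio of 1.18. After it, 10 locus numbers on, LOC_Os11g37980 rose 1.64-fold, from 237.9 to 389.2, below the 2-fold rule.

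The run of 6 from LOC_Os01g72120 to LOC_Os01g72170 had no gap of more than 10 locus numbers, and every member was at least 4-fold higher. LOC_Os01g72150 led it with 129.2, 123.8 and 134 normalized counts in wild type and 1221, 1193 and 1250 in plt345. Ratios ran from 4.21 for LOC_Os01g72130 to 11.5 for LOC_Os01g72170, so the highest was only 2.74 times the lowest. Immediately outside, LOC_Os01g72100 had a ratio of 0.930 and LOC_Os01g72190 of 0.614. The run that OC-I opens was less even, since OC-I and LOC_Os01g58910 (597.6 and 1627) were abundant in both genotypes while LOC_Os01g58960, LOC_Os01g58970 and LOC_Os01g58990 had wild type means of at most 5.11. These 3 low genes had ratios of 4.90, 9.80 and 15.6, and LOC_Os01g59020 closed the run at 2.74. Near the start of that run the auxin transport gene PIN9 (LOC_Os01g58860) rose from 4.42 to 21.1 but is separated from it by LOC_Os01g58870, at 3048 and 2713. PIN9 was chosen for mention after its values were seen.

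A run of 5 on chromosome 5, LOC_Os05g12170 to LOC_Os05g12240, was close to silent in wild type. LOC_Os05g12210 had 9.152, 6.137 and 2.046 normalized counts there and 283.4, 274 and 239.4 in plt345. LOC_Os05g12180 went from 6.13 to 233.2, and LOC_Os05g12240 from 3 wild type reads to 626 in plt345, a ratio of 199 (95% exact interval 67.8 to 967). LOC_Os05g12190 had no wild type read and was at least 35.0-fold higher. At the edge LOC_Os05g12170 differed less, by 2.89-fold. Its outer neighbour LOC_Os05g12150 narrowly missed the rule at 1.89-fold, with means of 92.25 and 174.5.

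The near absence of reads in wild type was most complete in the run LOC_Os10g41980 to LOC_Os10g42040. Its first 2 members had no wild type read and the last 2 had 1 read each. In plt345 LOC_Os10g41980 had 365.7, 375.7 and 378.9 normalized counts, at least 366-fold higher, and LOC_Os10g41999 had 128.5, 119.4 and 124, at least 121-fold higher. The gene just before it, LOC_Os10g41970, was well expressed in both genotypes, at 456.1 ± 28.6 and 381.6 ± 6.37 (SD, n = 3). After the run LOC_Os10g42090 had a ratio of 1.04. LOC_Os10g41999 was chosen for mention after its values were seen, as were the other members below that are not the most abundant of their run.

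Genes with few or no wild type reads also occurred in other runs, beside members with more wild type reads in some and beside low members in others. LOC_Os04g34500 had no wild type read and 126.5, 102.7 and 92.31 normalized counts in plt345. It stands beside LOC_Os04g34490, which rose from 17.0 to 600.9, and its run ended at LOC_Os04g34540, which only just passed the rule at 2.04-fold. LOC_Os07g44920 had 4 wild type reads and 2260 plt345 reads, between neighbours with ratios of 9.41 and 6.62. LOC_Os04g13000 had 1 and 651 reads and stands beside LOC_Os04g13160 with 3 and 59. LOC_Os06g24180 had 1 and 267 reads beside LOC_Os06g24190 with 12 and 152, and LOC_Os05g05040 had 1 and 214. Over all members 9 had no wild type read and 12 had 1 to 3, in sum 10.4%, compared with 5.81% of raised genes outside the runs and 0.847% of all kept genes. All these values were part of the choice of members.

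**Figure D3:**
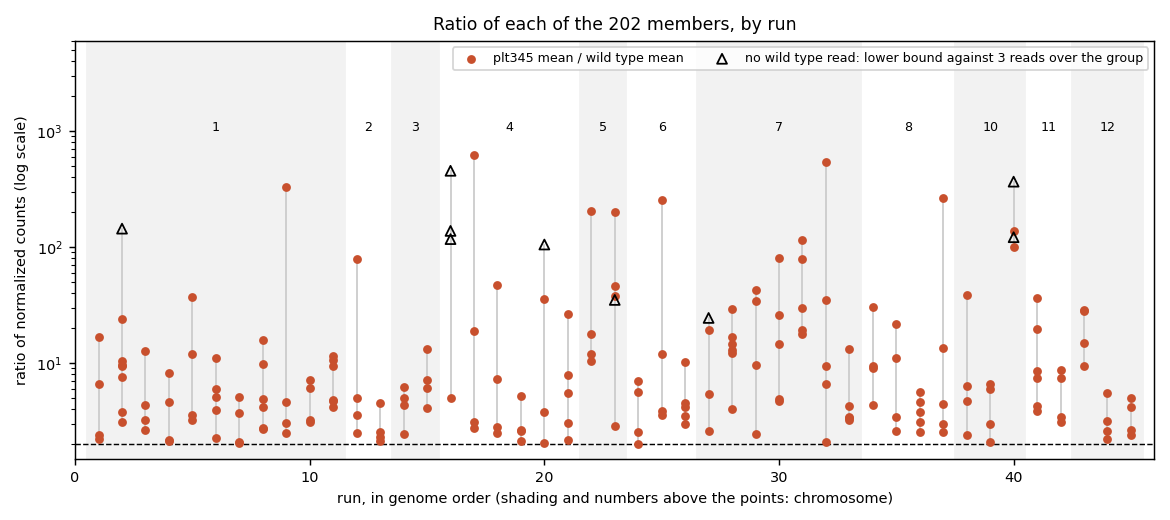
Ratio of the plt345 mean to the wild type mean (vertical axis, log scale) for each member, in 1 column per run in genome order; triangles are lower bounds for the 9 members with no wild type read, the dashed line is the 2-fold rule and grey lines join the members of a run. Most columns span a wide range, and columns with every point above 4 are few, among them runs on chromosomes 5, 7 and 10.

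Several runs on chromosome 7 held members with high ratios. In LOC_Os07g40850 to LOC_Os07g40910 all 5 members were at least 17.6-fold higher, and the run sum rose from 69.06 to 2204. LOC_Os07g40860 had 36.61, 35.8 and 24.55 normalized counts in wild type and 674.6, 648.7 and 551.9 in plt345. LOC_Os07g40890 rose 79.5-fold from 23 wild type reads in all, and LOC_Os07g40910 115-fold from only 7. Beyond the last member, 10 locus numbers on, LOC_Os07g40920 had means of 16 and 16.88, so a 115-fold difference adjoined a gene with almost none.

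In the run LOC_Os07g35500 to LOC_Os07g35560, LOC_Os07g35510 had 78.3, 101.3 and 66.5 normalized counts in wild type and 1189, 1178 and 1210 in plt345. LOC_Os07g35560 reached almost the same level, 1084, 1100 and 1085, from 14.24, 14.32 and 12.28. The 3 remaining members, LOC_Os07g35500, LOC_Os07g35520 and LOC_Os07g35540, had at most 347.1 in any plt345 library. Just before this run LOC_Os07g35480 rose 1.56-fold from a mean of 2390. Of the 4 members from LOC_Os07g24830 to LOC_Os07g25150, LOC_Os07g24830 rose from 48.65 ± 7.21 to 1656 ± 38.2 and LOC_Os07g25050 from 20.07 ± 4.55 to 849.6 ± 74.0 (SD, n = 3). That run crosses up to 220 locus numbers between members and is bounded at a distance by LOC_Os07g24190, with a ratio of 1.10. On chromosome 12 the run LOC_Os12g05840 to LOC_Os12g05880 was lower in level but even, with ratios from 9.38 to 28.8.

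A few runs included abundant genes. LOC_Os03g52370 had 2069, 1946 and 1876 normalized counts in wild type and 12483, 12313 and 11615 in plt345, the highest level of any member. Its neighbours LOC_Os03g52390 (759.7 to 3789), LOC_Os03g52380 (175.2 to 756.5) and LOC_Os03g52360 (273.2 to 663.7) completed a run with no step above 10 locus numbers. LOC_Os12g36240 had 1367, 1347 and 1124 in wild type and 6198, 6643 and 6208 in plt345. LOC_Os12g36210 and LOC_Os12g36220 beside it reached 3010 and 2229, and LOC_Os12g36270, far lower, went from 53.07 to 127.6. LOC_Os01g27210 had the highest wild type mean of any member, 2210, and rose 2.12-fold to 4689, in a run with the low members LOC_Os01g27200 (21.46 to 46.04) and LOC_Os01g27230 (15.32 to 126.3). In plt345 20 members had a mean of at least 1000, and the 3 highest held 24.1% of the summed counts of all 202.

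Other runs differed only moderately from wild type. From LOC_Os01g53160 to LOC_Os01g53220 the run sum rose from 175.9 to 409.9, the smallest ratio of sums at 2.33. In LOC_Os02g44980 to LOC_Os02g45010, 3 of 4 members had ratios between 2.12 and 2.54. LOC_Os04g33600, the most abundant gene of its run in plt345, had 197.3, 198.4 and 152.4 normalized counts in wild type and 412.8, 378.6 and 374 in plt345. LOC_Os06g18000, at 2.01-fold, was the member closest to the rule, followed by LOC_Os04g34540 and LOC_Os01g53160. Of the bounding genes the closest below it were LOC_Os01g04300 at 1.97-fold, LOC_Os10g20510 at 1.97-fold and LOC_Os05g12150. A slightly different fold would therefore move these edges.

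All other runs lay between these extremes. Their most abundant members in plt345 included LOC_Os03g57970 (142.6 to 1023), LOC_Os04g20164 (22.79 to 1063), LOC_Os01g71740 (510.8 to 1633) and LOC_Os07g03710 (427.4 to 1097). Lower leading genes were LOC_Os02g09220 (270.2 to 957.8), LOC_Os11g47520 (70.43 to 618.3), LOC_Os01g12110 (147.0 to 643.0) and LOC_Os10g34930 (250.8 to 749.3). LOC_Os06g49250 rose from 127.6 to 528.4 in a run of 5 whose successive members are 10 locus numbers apart. LOC_Os04g45170 rose from 192.3 to 419.9, in a run that follows LOC_Os04g45070, a gene that went down, with means of 5479 and 2460 (limma adjusted p = 9.71e-21, log2 fold change -1.15 ± 0.03 SE). Beyond the run ending at LOC_Os07g03730 and the gene after it, the homeobox gene OSH15 (LOC_Os07g03770) rose from 44.91 to 252.3. OSH15 is outside the runs and was chosen after its values were seen.

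Across all 45 runs, member ratios had a median of 5.53, with quartiles of 3.19 and 14.9, and genes without a wild type read entered at their bound. Raised genes outside the runs had a median of 3.76 and all kept genes 0.993. A ratio of at least 4 was reached by 65.3% of members and 46.9% of the other raised genes, and a ratio of at least 10 by 34.2% and 20.2%. Wild type levels were alike in both sets, with medians of 22.3 and 21.8 normalized counts, far below the 268 of all kept genes. The rule favours low wild type levels, since a gene low in wild type could pass the mean of 10 through plt345. A wild type mean under 10 was found in 35.1% of members, 32.6% of other raised genes and 5.05% of all kept genes. The plt345 levels differed more, with medians of 177 and 106. Compact runs, the 34 with no step above 50 locus numbers, and the 11 with wider steps had similar median ratios of 5.57 and 5.46, but medians of 213.7 and 105.9 in plt345.

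By limma all 202 members were higher, at an adjusted p under 0.05, where 34.0% of 23166 tested genes were higher and 68.0% differed in either direction. In 201 members every plt345 library exceeded every wild type library, against 35.6% of kept genes, the exception being LOC_Os02g09330 with 5.085, 12.27 and 5.115 against 11.77, 24.46 and 19.23. In 176 members the lowest plt345 library was at least 2 times the highest wild type library, against 10.7% of kept genes. By the authors' deposited table, a total of 200 members had an adjusted p under 0.05 and were higher, against 29.8% of tested genes. The 2 others there, LOC_Os01g46090 and LOC_Os10g34940, had 47 and 52 plt345 reads in all. As the 2-fold rule used these libraries, the counts describe the members and support nothing further.

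Members of a run rarely differed by the same factor. The highest member ratio was a median of 6.95 times the lowest of its run, from 2.06 times in the run of LOC_Os12g36240 to 258 times in the run of LOC_Os07g44920. It stayed under 3 times in 10 runs and reached at least 10 times in 17. In 9 runs every member was at least 4-fold higher. Inner members were not regularly the higher ones, since their median ratio exceeded that of the 2 end members in 24 of 45 runs and in 6 of the 15 runs with at least 5 members. For every run the summed counts of the 3 plt345 libraries lay above those of the 3 wild type libraries, by at least 2.01 times between the nearest libraries. The rule already requires a ratio of at least 2 between the summed genotype means, so this separation is no evidence for the runs.

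Genes next to the runs differed between genotypes in both directions. By the rule the 90 kept genes next to a run had ratios under 2, and 7 of them had 1.5 or more, which is 7.78% against 8.08% of all kept genes under 2-fold. Another 31 had ratios from 1 to 1.5, 48 from 0.5 to 1 and 4 of 0.5 or less. Their median of 0.912 was near the 0.944 of all kept genes under 2-fold. One gene further out, 13 of 90 were raised at least 2-fold, or 14.4%, against the 13.9% of all kept genes. By limma 22 bounding genes (24.4%) were higher and 41 (45.6%) lower, against 23.4% and 39.4% of all kept genes under 2-fold. Reads of overlapping, antisense or near-identical neighbouring genes cannot be told apart here, because strand and counting options are not given.

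**Figure D4:**
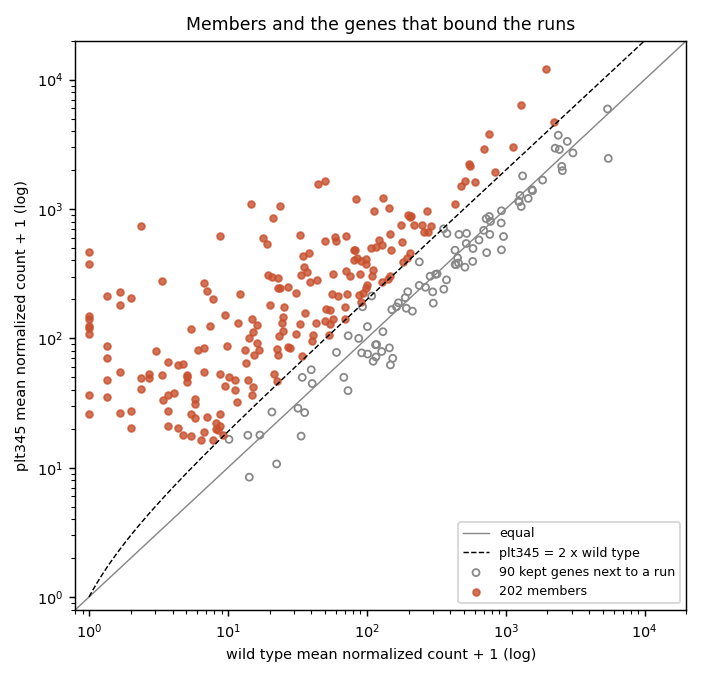
Wild type mean (horizontal) against plt345 mean (vertical), both normalized count plus 1 on log scales, for the 202 members (filled) and the 90 kept genes next to a run (open); the solid line is equality and the dashed line the 2-fold rule. Members extend to 0 in wild type and to 12137 in plt345, while bounding genes, under 2-fold by the rule, lie on both sides of the line of equality.

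Listed genes too low for the rule also lay inside the runs. Of these 59, 37 had a higher mean in plt345 and 22 a lower one. The 62.7% that were higher compare with 61% of all 7819 listed genes with a mean under 10, so they did not stand apart in direction. At least 2-fold higher, or with reads in plt345 only, were 47.5% of them and 41.9% of all such genes. Summed over the 59, reads numbered 349 in wild type and 620 in plt345. LOC_Os01g31010 had 1 and 55 reads and LOC_Os04g11030 0 and 37, whereas LOC_Os06g23950 had 13 and 5. GLK1 (LOC_Os06g24070), a transcription factor known for chloroplast development, lay inside a run on chromosome 6 with 8 and 15 reads. The low genes named here, GLK1 included, were chosen after their values were seen.

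A list of 22 ranges of locus identifiers that rice nomenclature gives to tandem gene families was set beside the runs. The list was chosen with earlier results of these data known. Shares in it therefore describe these ranges and are no evidence about tandem families in general. In 14 ranges at least 1 symbol could be checked. Of 107 kept genes in the ranges, 44 were raised by the 2-fold rule (41.1%) and 5 lowered, against 13.9% and 3.04% of all kept genes. Members lay in 2 ranges. A range with fewer than 4 kept genes could not hold a whole run, as in the PR10 range, where all 3 kept genes were raised. In the germin-like range on chromosome 8, which includes RGLP2 and whose family comprises cell wall and extracellular proteins, all 4 kept genes were raised and made up a run. LOC_Os08g08970 there had 218.6, 221.9 and 212.8 normalized counts in wild type and 718.7, 741.6 and 779.8 in plt345. LOC_Os08g08960, LOC_Os08g08980 and LOC_Os08g09010 had ratios of 11.1, 2.57 and 21.5.

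The other range with a member was the small heat shock range on chromosome 1, a family of chaperones known to rise with heat. Its only kept gene, LOC_Os01g04350, had means of 3.74 ± 2.93 and 62.64 ± 6.21 (SD, n = 3) and belongs to a run that begins at LOC_Os01g04330. HSP16.9A (LOC_Os01g04370) in the same stretch had 0 wild type and 23 plt345 reads, too few for the rule. In the tau class glutathione S-transferase range, 12 of 24 kept genes were raised without forming a run of 4. In 4 ranges with kept genes, among them small heat shock genes on chromosome 3 and the PIP2 aquaporins, none was raised, and 1 further range had no kept gene. The families of the members outside these ranges were not analysed here.

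The choice of members was repeated without 1 wild type and 1 plt345 library, and the genes found were then read in the pair left out. Over the 9 possible pairs this gave 44 to 51 runs with 198 to 231 genes, of which 169 to 197 were among the 202. In the pair left out 89.6% to 96.5% of these genes were at least 2-fold higher, where 14% to 14.8% of all kept genes were. Their median ratio there was 4.89 to 6.04. The lowest share was found with wild type replicate 1 and plt345 replicate 3 left out, 207 of 231 genes. Libraries of 1 genotype may be technical repeats, so this shows how steady the genes of the runs were across these libraries and not across plants. Whether whole runs stayed unbroken in the pair left out was not tested. Raised genes outside the runs were not read in the same way, so these shares cannot tell genes of runs from other raised genes and are no evidence for the runs.

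**Figure D5:**
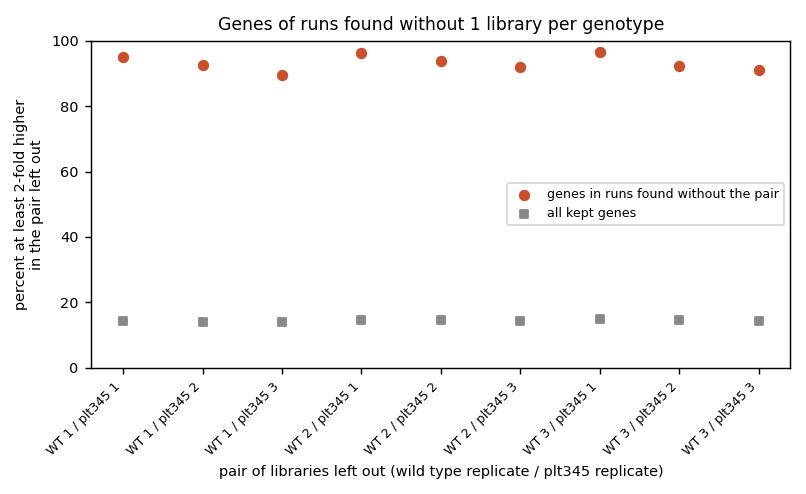
Percent of genes at least 2-fold higher in a pair of libraries that took no part in finding the runs (vertical axis), for each of the 9 pairs left out (horizontal axis); circles are genes of the runs found without the pair and squares all kept genes. Circles lie between 89.6% and 96.5% and squares between 14% and 14.8%.

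Lowered genes formed a pair of runs by the same rule. From LOC_Os01g73700 to LOC_Os01g73730 on chromosome 1, LOC_Os01g73700 fell from 1121, 1118 and 1068 normalized counts in wild type to 4.903, 7.827 and 11.54 in plt345. LOC_Os01g73720 beside it went from 824.9 to 153.9. From LOC_Os10g31100 to LOC_Os10g31240 on chromosome 10, 5 genes were lower, among them LOC_Os10g31240 with means of 1605 and 790. Both included genes with wild type means above 1000. Neither met the rule when wild type replicate 1 was left out, and only 1 run of 4 genes was found when either wild type replicate 3 or plt345 replicate 1 was. The lowered genes named here were chosen after their values were seen.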

How the data were processed

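Root tip RNA of 6 libraries was extracted with TRIzol and read as paired ends on a BGISEQ-500, per the labels' protocols. HISAT2, featureCounts 2.0.0 and DESeq2 1.38.3 are named in the submitters' processing notes. For the genome build and strand setting, the sources used here give no entry. The authors deposited 1 table with size-factor-normalized counts per library (a signal that is never negative), and the authors' log2 fold change with standard error, a Wald score, p-values and adjusted p-values, per the file headers. Whole reads were recovered, as 100% of each library's values came within 0.01 of a multiple of 1 read.

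Genes with a mean of at least 10 were tested with limma 3.58.1 in R 4.3.3 (lmFit, eBayes with trend, two-sided) on log2(value + 1), with Benjamini-Hochberg adjustment over 23166 genes and a threshold of 0.05. The pseudocount understates changes of low genes, and ratios on few wild type reads are imprecise also where no interval is given. With 1 to 3 wild type reads a depth-scaled ratio of reads is given with its 95% exact interval, and a gene with none gets a bound against 3 reads over the group; both cover counting error only. Libraries of 1 genotype differed by more than sampling noise (chi-square per gene 1.44 to 2.12, and 53.2 to 54.5 across genotypes). Both the fit and the finding of runs were tested on simulated data.

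The members and lists were chosen with earlier results of these data known. Named genes are every member of the 6 longest runs, elsewhere the member with the highest plt345 mean, members with a checked symbol, and the 3 genes nearest the 2-fold rule on either side. Not all are printed, and genes next to a run, such as GME-2, and low genes inside one, such as PT13 and HSP16.9A, were named after their values were seen. Of 141 pairs of symbol and locus written from nomenclature, 131 had a gene of that symbol within 1 Mb of the interpolated place in the reference table (assembly ASM3414082v1), 8 were not found, PLT3 to PLT5 among them, and 2 were contradicted and left out. Pairs near the runs were written after the runs were seen. The reference holds no LOC_Os identifiers, so a match shows a pair to be plausible.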

Additional observations from a re-analysis of the deposited data

How the results depend on the processing

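None of the 1220 recomputed values of the 82 named members reversed direction or left its side of the threshold. These members were chosen by the same contrast, many as the most abundant of their run in plt345, so this is no evidence for them. LOC_Os01g46090 and LOC_Os10g34940, which the authors' deposited values did not call, are not among the 82. The 45 runs and 202 genes became 110 and 497 with a fold of 1.5, 23 and 105 with a fold of 3, 134 and 469 with at least 3 genes a run, and 15 and 82 with at least 5. With no filter on the mean there were 161 runs and 764 genes, including 166 of the 202, and with a mean of at least 50 there were 16 and 75. Requiring every plt345 library to be 2-fold above every wild type library left 27 and 124. Leaving out 1 library gave 42 to 49 runs and 187 to 228 genes, of which 171 to 198 were among the 202. The 2 lowered runs with 9 genes became 10 and 42, 0 and 0, 7 and 24, and 1 and 5 under the same fold and length settings, 18 and 81 with no filter, 1 and 5 at a mean of 50, 0 and 0 when every library had to differ, 1 and 4 with library totals, and 0 to 2 runs with 0 to 9 genes without 1 library (0 without wild type replicate 1). The 3193 genes with a log2 fold change of at least 1 became 5094 with no filter and 1839 at a mean of 50. Scaling by library totals gave 57 runs and 260 genes, with 198 of the 202, and moved the share of called genes that were higher from 50.1% to 60.9%. Members called higher were 202 with edgeR 4.0.16, 201 with DESeq2 1.42.0, 200 in the authors' deposited table and 193 to 202 without 1 library, where members that fell under the mean of 10 were not tested and at most 1 tested member lost its call (193 of 194 without plt345 replicate 1, 201 of 202 without wild type replicate 3). The replicate numbers are not shown to pair the samples (r of deviations 0.0240, 0.0193 and -0.000854 for equal numbers), although this cannot exclude a shared preparation. With these numbers as a replicate block 7941 genes were higher and 7972 lower, the 202 members among the former.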
